A study of Mus musculus with 12 samples.

Results

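Mitochondrial antioxidant defence was followed in whole mouse adrenals through 10 genes, chosen by name: *Nnt*, *Txn2*, *Txnrd2*, *Prdx3*, *Gsr*, *Gpx1*, *Gpx4*, *Glrx2*, *Sod2* and *Cat*. All 10 were among the 39017 genes of the count table, and all 10 passed the filter on low counts that left 14953 genes to test. RNA came from adrenals trimmed of fat, from female mice of 10 to 11 weeks, 6 of them controls (Ctrl) and 6 βCat-GOF, on a mixed sv129-C57Bl/6 background. By the genotype given for each sample both groups carried *AS* Cre/+, although the titles of the controls call them wild type (Wt). In this allele Cre is made from the aldosterone synthase (*Cyp11b2*) locus of zona glomerulosa (zG) cells. The βCat-GOF mice also carried *Ctnnb1* fl(ex3)/+, an allele that loses exon 3 under Cre and then makes stabilized β-catenin. Cre acts in zG cells while whole glands were sequenced. In every value below, fewer cells of a type and less RNA per cell therefore cannot be told apart. The paper cites lineage tracing in which zG cells move inward to the zona fasciculata and change type. Recombined cells may therefore lie there too, which was not checked here.

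Adrenal steroid synthesis takes place partly in mitochondria, where cytochrome P450 enzymes use electrons from NADPH and leak some of them to oxygen, giving superoxide and hydrogen peroxide. SOD2 turns superoxide into hydrogen peroxide, which is removed by PRDX3 in the thioredoxin arm and by glutathione peroxidases in the glutathione arm. Both arms draw on NADPH, to which the transhydrogenase NNT of the inner membrane contributes. Loss of *NNT* or *TXNRD2* in people is known to cause glucocorticoid deficiency.

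The mice were 1367-1-2, 1367-1, 1367-5-2, 1367-5, 1367-7 and 1367-10 in Ctrl, and 1369-2ear, 1369-2, 1369-4, 1369-8, 1387-8 and 1369-3 in βCat-GOF. The number that opens a label follows the genotype, so the effects of genotype and of what that number stands for cannot be told apart. Between 14090378 and 25625494 reads were counted on genes per Ctrl library and between 13484675 and 24951480 per βCat-GOF library, at which 3 counts correspond to 0.117 to 0.222 CPM (counts of a gene set to a common library size). Markers of the cortex and the medulla were present in every mouse, with zona fasciculata (zF) markers summing to 746863 to 901964 normalized counts in Ctrl. Per-gene counts do not show exon 3 of *Ctnnb1*, so the recombined allele was not checked here. The βCat-GOF mouse 1369-2ear stood apart in zF markers, with a mean of 9.57 on the log2 CPM scale against 10.22 to 11.16 in the other mice, and results it bears on are given without it.

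Of the 10 genes, 3 (*Txnrd2*, *Gpx1* and *Gpx4*) encode enzymes whose active site holds selenocysteine, which is inserted at an in-frame UGA codon that would otherwise end translation. These codons are shown because the reductase step of the thioredoxin arm and the peroxidase step of the glutathione arm pass through them. The stretches come from GENCODE M21 transcripts and are written 5′ to 3′ on the coding strand, with the selenocysteine codon in capitals.
Gpx1: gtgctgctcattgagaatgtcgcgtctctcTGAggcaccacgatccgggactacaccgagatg
Gpx4: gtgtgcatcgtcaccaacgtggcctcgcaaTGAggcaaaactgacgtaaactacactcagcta
Txnrd2: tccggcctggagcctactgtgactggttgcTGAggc
Txnrd1: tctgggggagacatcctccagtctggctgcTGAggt
In *Gpx1* the codon was number 47 of 201 (GRCm38, chr9:108339451-108339453), and in the longest coding transcript of *Gpx4* it was number 129 of 253 (chr10:80054737-80054739). Whether this transcript encodes the mitochondrial form of GPX4 was not checked, and the number may differ in others. In both thioredoxin reductases the selenocysteine codon was the one before the last, number 526 of 527 in *Txnrd2* (chr16:18477772-18477774) and number 612 of 613 in *Txnrd1* (chr10:82896037-82896039), the cytosolic enzyme described further on.

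None of the 10 genes passed the test between βCat-GOF and Ctrl adrenals. With edgeR's quasi-likelihood test and Benjamini-Hochberg adjustment over all genes tested, 0 of 10 were called at an adjusted p under 0.05, and 0 of 10 had an unadjusted p under 0.05, the smallest being 0.132 for *Sod2*. DESeq2 called 0 of 10 as well. Over all genes tested, 551 were called (3.68%), 323 of them higher in βCat-GOF (2.16%) and 228 lower (1.52%). The study's own cut-offs ask for a fold above 1.4, a base mean (mean normalized count over the 12 mice) above 100 and an adjusted p under 0.05, and 0 of 10 passed them against 352 genes in all (2.35%). In 0 of 10 did the groups fail to overlap, against 415 of all genes tested (2.78%). The fold change was above 0 on the log2 scale in 4 genes and below 0 in 6, with a median of -0.03 beside 0.0001 over all genes tested. The 95% intervals of 9 genes lay within a fold of 1.4 in either direction (0.49 on the log2 scale), and *Prdx3* was the exception, with a lower bound of -0.49 that rounds to the limit. In simulated counts of the same depth the test recovered 25 of 50 genes changed 1.5-fold and 49 of 50 changed 2-fold. Every simulated gene was given the same dispersion, whereas the 10 genes differed in their spread between mice. These shares are therefore not the power of the test for the 10 genes.

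**Figure D1:**
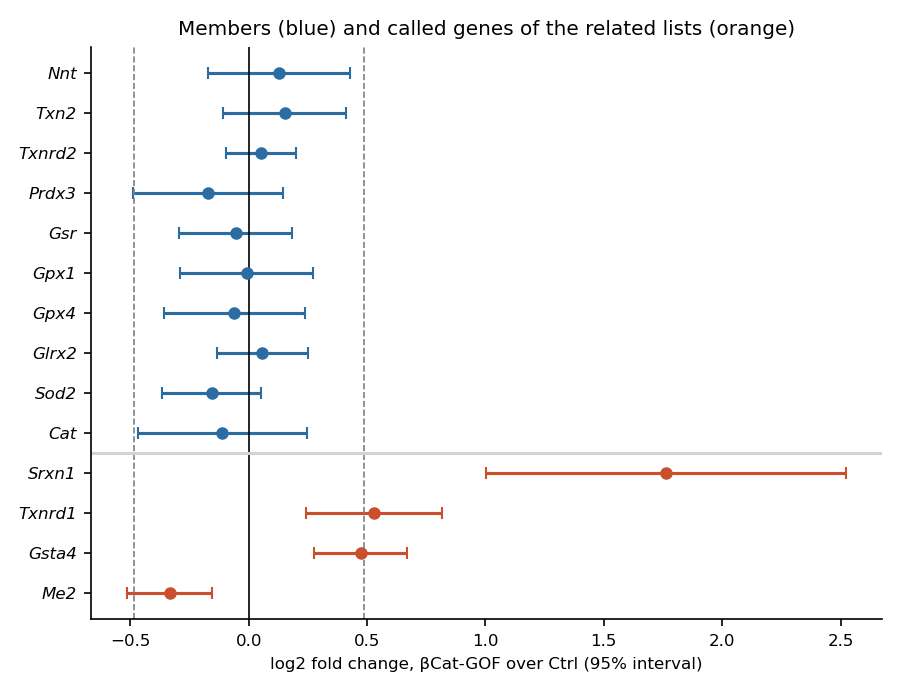
Log2 fold changes of βCat-GOF over Ctrl with their 95% intervals from edgeR (6 mice in each group), for the 10 genes in blue and for 4 called genes of related lists in orange. Dashed lines mark a fold of 1.4 in either direction; every blue interval crosses 0, and the *Srxn1* interval lies to the right of all others.

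*Nnt* encodes the nicotinamide nucleotide transhydrogenase, which uses the proton gradient to make mitochondrial NADPH from NADH (chr13:119335448-119408997, minus strand). Its normalized counts (counts divided by DESeq2 size factors) in Ctrl were 5054 in 1367-1-2, 3372 in 1367-1, 2896 in 1367-5-2, 3723 in 1367-5, 4553 in 1367-7 and 4392 in 1367-10. In βCat-GOF they were 3619 in 1369-2ear, 3851 in 1369-2, 4734 in 1369-4, 3799 in 1369-8, 5501 in 1387-8 and 4893 in 1369-3. The groups overlapped over most of their range, although the lowest values were those of 2 Ctrl mice and the highest was that of a βCat-GOF mouse. Means were 3998 ± 808 in Ctrl and 4400 ± 754 in βCat-GOF (SD, n = 6 mice each), a log2 fold change of 0.13 (SE 0.14, 95% interval -0.17 to 0.43, edgeR adjusted p = 0.655). The exact permutation test of mean log2 CPM over all assignments of the mice to 6 and 6 gave p = 0.366 (two-sided, unadjusted).

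Within the thioredoxin arm, TXN2 is the mitochondrial thioredoxin, which carries reducing power to PRDX3 (chr15:77915047-77929006). *Txn2* had 8609, 9941 and 11981 normalized counts in the lowest, median and highest Ctrl mouse and 9339, 11222 and 13722 in βCat-GOF. Its log2 fold change of 0.15 (SE 0.12, 95% interval -0.11 to 0.41, edgeR adjusted p = 0.51) lay within the spread between mice. TXNRD2, the mitochondrial thioredoxin reductase, passes electrons from NADPH to TXN2 (chr16:18426384-18479073). *Txnrd2* was the steadiest of the 10, at 1722, 1834 and 1883 normalized counts in Ctrl and 1730, 1866 and 2176 in βCat-GOF. The SD of its log2 CPM in Ctrl was 0.06, larger than that of only 2.57% of the 11431 genes with a base mean above 100. Its log2 fold change of 0.05 had the narrowest interval of the 10, -0.10 to 0.20 (SE 0.07, edgeR adjusted p = 0.721).

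PRDX3, the peroxiredoxin of the mitochondrial matrix, reduces hydrogen peroxide at the end of this arm (chr19:60864051-60874556). *Prdx3* had 16680, 21313 and 24426 normalized counts in Ctrl and 13851, 19850 and 23979 in βCat-GOF. The lowest mice of all were the βCat-GOF mice 1369-2ear (13851) and 1369-2 (14227), and the other 4 βCat-GOF mice lay within the Ctrl range. The log2 fold change was -0.17 (SE 0.15, 95% interval -0.49 to 0.14, edgeR adjusted p = 0.547). Without 1369-2ear it was -0.09, and without 1369-2ear and 1369-2, a choice made after the data were seen, 0.00 (edgeR adjusted p = 0.99).

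No gene of the glutathione arm passed the test either. GSR returns oxidized glutathione to its reduced form in the cytosol and in mitochondria (chr8:33652523-33698163), and *Gsr* had 850, 1072 and 1152 normalized counts in Ctrl and 805, 971 and 1252 in βCat-GOF. Its lowest and highest values were both in βCat-GOF mice, and its log2 fold change was -0.06 (SE 0.11, 95% interval -0.29 to 0.18, edgeR adjusted p = 0.823). GPX1, the selenocysteine peroxidase of cytosol and mitochondria, reduces hydrogen peroxide with glutathione (chr9:108338903-108340343). *Gpx1* had 5436, 5946 and 7313 normalized counts in Ctrl and 4782, 6018 and 8425 in βCat-GOF. Its log2 fold change was -0.01 (SE 0.13, 95% interval -0.29 to 0.27, edgeR adjusted p = 0.981), a sign that turned with other size factors.

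GPX4 reduces lipid peroxides within membranes and has a mitochondrial form (chr10:80047166-80056439). *Gpx4* had 3461, 4549 and 5420 normalized counts in Ctrl and 3169, 4100 and 5528 in βCat-GOF, with a log2 fold change of -0.06 (SE 0.14, 95% interval -0.36 to 0.24, edgeR adjusted p = 0.851). The genome holds 2 pseudogene copies of *Gpx4* in GENCODE M21, 1 of them 99.7% identical over 73.7% of the transcript. Reads from that stretch may not map uniquely, so the level of *Gpx4* is uncertain. GLRX2, the mitochondrial glutaredoxin, removes glutathione from protein thiols (chr1:143716338-143749676). *Glrx2* had 732, 790 and 825 normalized counts in Ctrl and 650, 832 and 948 in βCat-GOF, with a log2 fold change of 0.06 (SE 0.09, 95% interval -0.14 to 0.25, edgeR adjusted p = 0.768). Its βCat-GOF values reached past the Ctrl range at both ends.

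The same held for the enzymes that act on superoxide and on hydrogen peroxide without thiols. SOD2 is the manganese superoxide dismutase of the matrix (chr17:13006846-13040063), and *Sod2* had 3522, 3958 and 4364 normalized counts in Ctrl and 2781, 3676 and 4291 in βCat-GOF. Of the βCat-GOF mice, 1369-2ear (2781) and 1369-2 (3287) lay below all Ctrl mice. The log2 fold change was -0.16 (SE 0.10, 95% interval -0.37 to 0.05, edgeR adjusted p = 0.39), -0.09 without 1369-2ear and -0.05 without both mice. Catalase, encoded by *Cat*, breaks down hydrogen peroxide mainly in peroxisomes (chr2:103453849-103485160). *Cat* had 5997, 7609 and 8382 normalized counts in Ctrl and 3937, 7674 and 8741 in βCat-GOF. Both the lowest mouse (1369-2ear) and the highest (1369-8) were βCat-GOF mice, and the SD of log2 CPM was 0.17 in Ctrl and 0.43 in βCat-GOF. Its log2 fold change of -0.11 (SE 0.17, 95% interval -0.47 to 0.25, edgeR adjusted p = 0.753) became 0.02 without 1369-2ear.

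**Figure D2:**
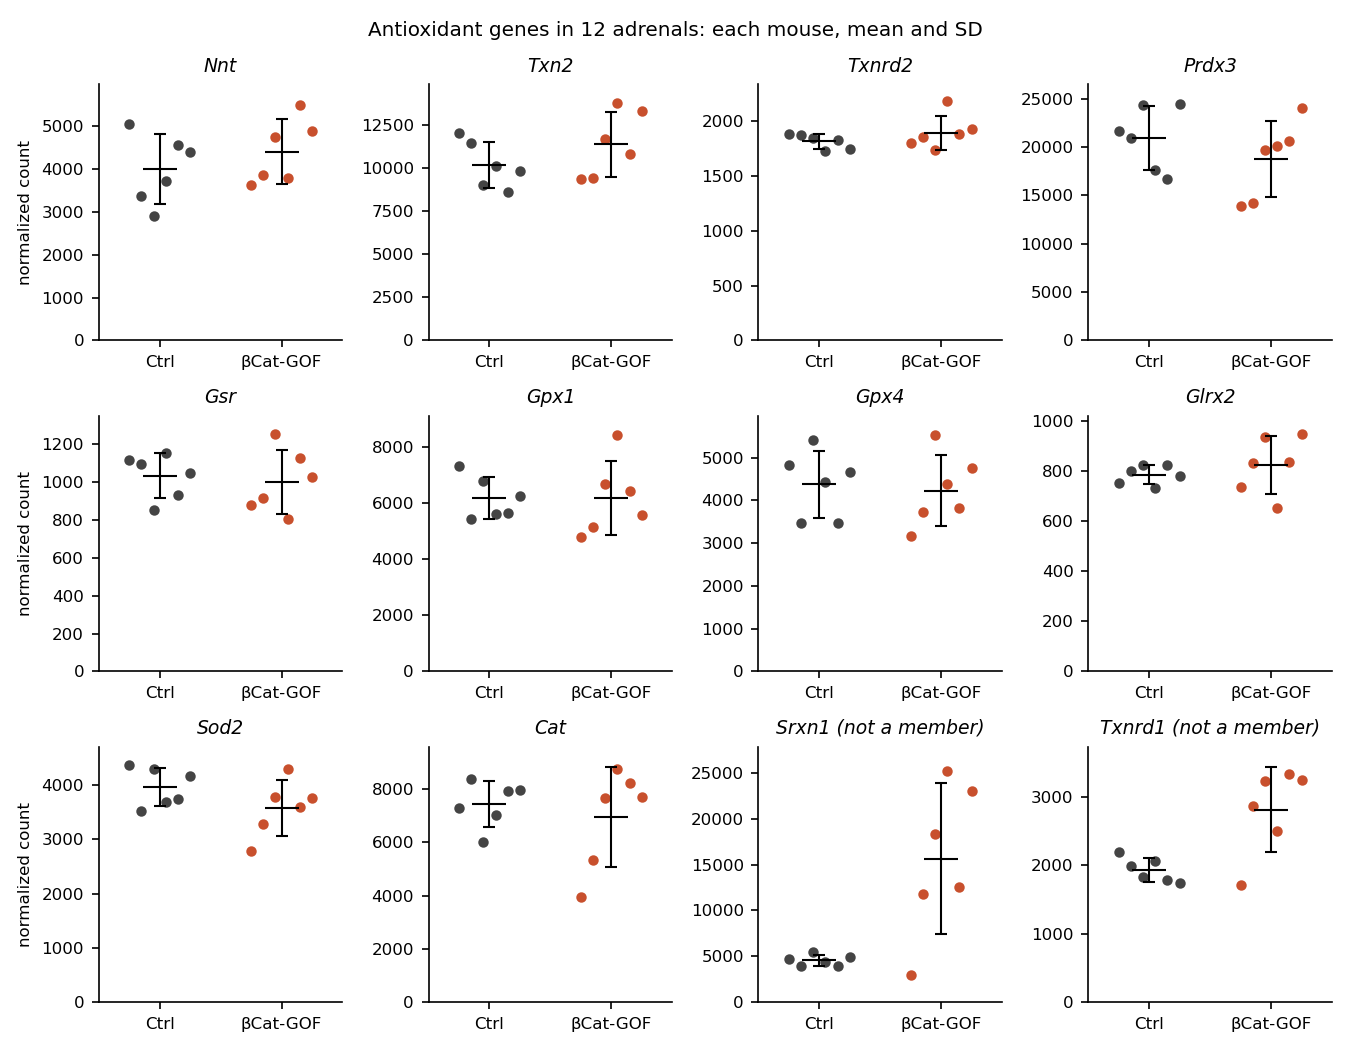
Normalized counts (vertical axes, from 0) of the 10 genes and of *Srxn1* and *Txnrd1* in 6 Ctrl (grey) and 6 βCat-GOF (orange) mice, 1 point per mouse in the order the mice are listed, with the mean and SD. Groups overlap in all 10 genes, while 5 of 6 βCat-GOF mice lie above all Ctrl mice in *Srxn1* and in *Txnrd1*.

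Levels were compared between genes as CPM per kb of merged exon length. In Ctrl, *Prdx3* had the highest level, 706 ± 110 CPM per kb (SD, n = 6 mice), followed by *Gpx1* at 214 and *Cat* at 142. *Gpx4* at 127 and *Txn2* at 120 came next, and the ranges of *Cat* and *Gpx4*, and of *Gpx4* and *Txn2*, overlapped between mice. A wide step then separated *Txn2* from *Nnt* at 28.3 ± 5.67 CPM per kb. *Nnt*, *Txnrd2* (20.6), *Sod2* (19.7) and *Gsr* (18.7) formed a run in which each overlapped the next, and *Glrx2* was lowest at 4.46. So in the thioredoxin arm the peroxidase had a higher level per length than its thioredoxin, and the thioredoxin a higher level than its reductase. The ranges of the 6 mice did not overlap at either step from *Prdx3* to *Gpx1* and from *Gpx1* to *Cat*. Divided by the longest coding transcript instead, the level of *Txn2* was 247, of *Gpx4* 219 and of *Nnt* 57.5 CPM per kb, which put *Txn2* and *Gpx4* above *Cat* (142) and left *Prdx3* (706) first.

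**Figure D3:**
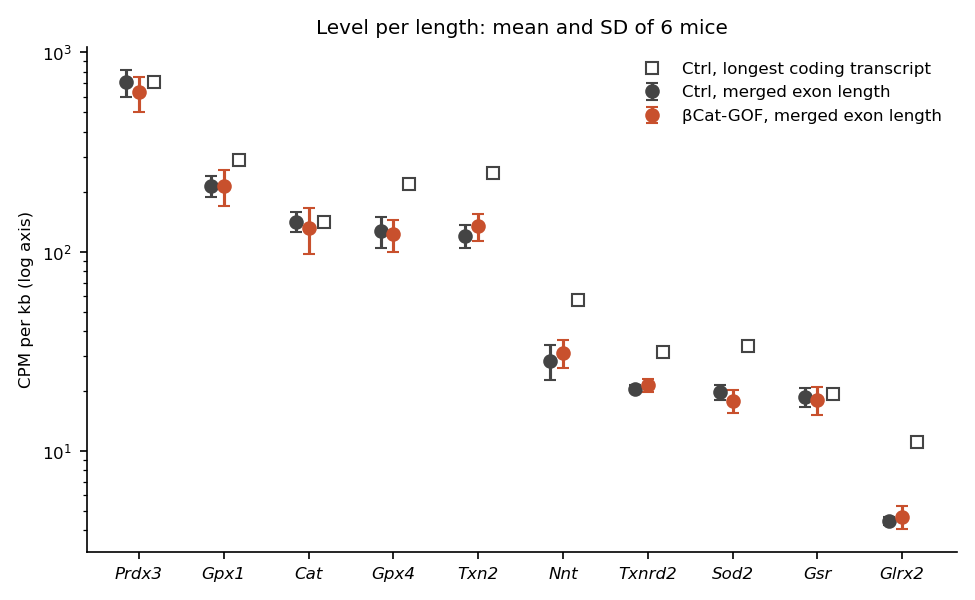
Level of the 10 genes in CPM per kb (log axis) as mean and SD of 6 Ctrl (grey) and 6 βCat-GOF (orange) mice over merged exon length, with open squares for the Ctrl mean over the longest coding transcript. *Prdx3* is highest at 706 and *Glrx2* lowest at 4.46 in Ctrl, and for each gene the SD bars of the groups overlap.

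Across mice the 10 genes varied by 1.26-fold (*Txnrd2*) to 2.22-fold (*Cat*) between the lowest and the highest normalized count, and by 1.9-fold in *Nnt*. A gene was said to have separate levels when the 12 log2 CPM values, put in order, held a gap of at least 1 with 2 or more mice on each side. By this measure 260 of all genes tested had separate levels (1.74%), and 0 of the 10 did, *Nnt* included. The largest gap was 0.17 in *Nnt*, with 6 mice below and 6 above it, and 0.22 in *Prdx3* and in *Cat*. The spread of *Nnt* among Ctrl mice was still on the wide side, with an SD of log2 CPM of 0.30, larger than that of 81.6% of genes with a base mean above 100. In βCat-GOF mice its SD of 0.23 was larger than that of 47.7% of these genes. *Nnt* thus held no gap of at least 1 between mice, and this measure does not capture smaller steps.

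Low values of the 10 genes gathered in the mouse 1369-2ear. It was the lowest of all 12 mice in 5 genes (*Prdx3*, *Gpx1*, *Gpx4*, *Sod2* and *Cat*), on normalized counts and on log2 CPM alike. On log2 CPM it was among the lowest 3 in 7 of 10, with *Txnrd2*, *Txn2* and *Glrx2* as the exceptions, and on normalized counts in 9 of 10, with *Txnrd2* as the exception. Over all genes tested it was the lowest mouse in 9.35% and among the lowest 3 in 24.7%, on log2 CPM. Its median deviation over the 10 genes was -0.26 from the Ctrl mean on the log2 CPM scale. In this mouse 6 mitochondrial steroidogenesis genes (*Star*, *Cyp11a1*, *Cyp11b1*, *Cyp11b2*, *Fdx1* and *Fdxr*) averaged 10.85 on the log2 CPM scale against 11.14 to 11.59 in the other mice, and its X-zone markers 5.69 against 6.87 to 9.15. Genes of mitochondrial content averaged 6.62 in this mouse, inside the range of the others (6.61 to 6.99). In contrast, 1369-8 was the highest mouse in 4 genes (*Txn2*, *Txnrd2*, *Gpx1* and *Cat*) and the lowest in *Gsr* and *Glrx2*, so its values lay in both directions. Over all genes tested 1369-8 was the lowest mouse in 17.5%, on log2 CPM. The share of all genes in which it was the highest was not counted. The part of cell composition in these values was not tested.

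**Figure D4:**
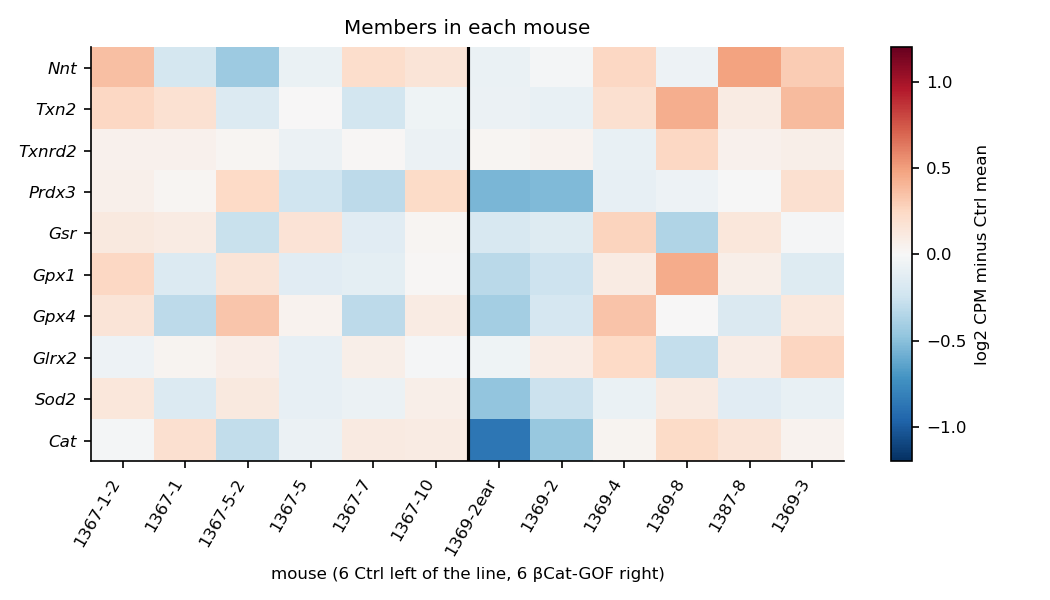
Log2 CPM of the 10 genes (rows) in each of 12 mice (columns) as the difference from the Ctrl mean of that gene, blue below and red above. The column of 1369-2ear is the bluest, with the deepest value in *Cat*, and the *Nnt* row shows 1367-5-2 low and 1387-8 high.

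*Nnt* was also set beside its neighbours on chromosome 13, because the mice are of mixed background. The reference genome is C57BL/6J, a substrain whose own *Nnt* is known to lack a run of exons, and counts per gene do not show which allele a mouse carries. GENCODE M21 lists a second gene model that is identical to *Nnt* over 96.4% of its transcript and was not in the count table. Whether this model affects which reads were counted for *Nnt* was not tested, so the level of *Nnt* is uncertain too. Of the 3 nearest tested genes on each side, 4833420G17Rik, 53.8 kb away (chr13:119462768-119486120), had a largest gap of 0.97 between mice on the log2 scale, just under the limit of 1. The largest gap was 0.63 in *Emb* (2060 kb away), 0.55 in 3110070M22Rik (78.3 kb), 0.32 in *Fgf10* (543 kb), 0.12 in *Paip1* (19.6 kb) and 0.08 in *Mrps30* (948 kb).

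The 4833420G17Rik values were 523 or more in 5 mice, called high here, and 264 or less in the others, called low. Both kinds of mice occurred in both genotypes, and the gap between them did not reach the limit for separate levels. In the 6 mice with the lowest *Nnt*, from low to high, the normalized count of 4833420G17Rik was 667 in 1367-5-2, 985 in 1367-1, 656 in 1369-2ear, 264 in 1367-5, 523 in 1369-8 and 710 in 1369-2. In the 6 mice with the highest *Nnt* it was 251 in 1367-10, 253 in 1367-7, 223 in 1369-4, 219 in 1369-3, 255 in 1367-1-2 and 222 in 1387-8. It was thus 523 or more in 5 of the 6 mice with less *Nnt*, 1367-5 being the exception, and 255 or less in all 6 with more. Mice whose labels share a stem did not always share the level: 1367-1 was high and 1367-1-2 low, and 1367-5-2 was high and 1367-5 low, whereas 1369-2ear and 1369-2 were both high. Between the genotypes 4833420G17Rik did not pass the test (log2 fold change -0.07, edgeR adjusted p = 0.947), and other genes overlap 10.7% of its exon length. The neighbour 3110070M22Rik had a similar arrangement at low counts, with 11.6 or less in the mice with more *Nnt*. In those with less *Nnt* it had 12.7 or more, except 1367-5 (10.5). For *Paip1*, the nearest neighbour, values overlapped, at 1613 to 2948 with less *Nnt* and 1682 to 2193 with more. Those of *Emb*, *Mrps30* and *Fgf10* overlapped as well. The mice with less and with more *Nnt* were divided at its largest gap, 0.17, and 45.5% of all genes tested had a smaller gap. These arrangements were noticed in the data, and in how many other genes tested the values are arranged alike was not counted. Whether they follow the *Nnt* alleles was not tested.

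**Figure D5:**
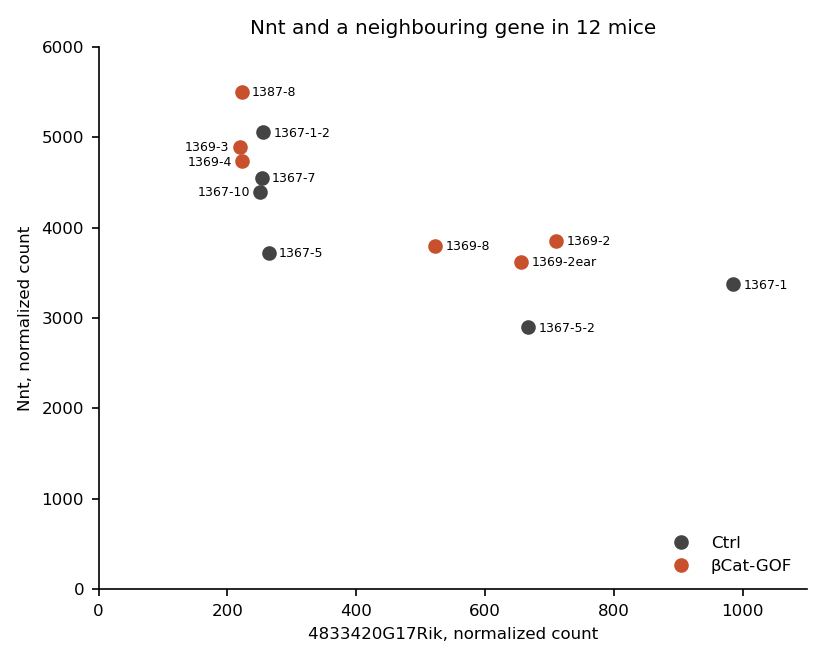
Normalized count of *Nnt* (vertical axis) against that of its neighbour 4833420G17Rik (horizontal axis) in 6 Ctrl (grey) and 6 βCat-GOF (orange) mice, each named. The 5 mice with 523 or more for 4833420G17Rik have at most 3851 for *Nnt*, and 6 of the 7 others have at least 4392. This arrangement was noticed in the data and was not tested.

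Over the 12 mice, the genes whose pattern was most like that of *Nnt* were *Parp3*, *Rdh10*, *Pomt1*, *Vhl* and *Laptm4b*. Likeness was the mean absolute difference of log2 CPM after each gene was centred on its own mean, and it ran from 0.10 for *Parp3* to 0.12 for *Laptm4b*. None of these 5 genes was called (edgeR adjusted p from 0.409 to 0.997). As they were chosen for a pattern like that of *Nnt*, which was not called either, this is no separate result.

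Related genes outside the 10 were read from lists written by function. The shares over all genes tested to set beside them were 2.16% called higher, 1.52% called lower and 2.78% with groups that did not overlap. Whether any list held more calls than these shares was not tested. Of 28 other antioxidant genes, 2 were called higher in βCat-GOF and 0 lower, with a median log2 fold change of 0.03. *Srxn1* changed most. It encodes sulfiredoxin, which restores peroxiredoxins such as PRDX3 after their active-site cysteine has been over-oxidized. Its normalized counts in Ctrl were 4699, 3963, 5484, 4347, 3967 and 4925 in the order of the mice given above, and in βCat-GOF they were 2944, 11822, 18376, 25155, 12553 and 23013. All βCat-GOF mice but 1369-2ear lay above all Ctrl mice, and 1369-2ear lay below them. *Srxn1* rose 3.39-fold, from 4564 ± 593 to 15644 ± 8218 (SD, n = 6 mice each; log2 fold change 1.76, SE 0.35, 95% interval 1.00 to 2.52, edgeR adjusted p = 0.0149). *Prdx3*, the gene of its substrate, did not pass the test in the same mice, as given above.

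*Txnrd1* encodes the cytosolic thioredoxin reductase, the counterpart of TXNRD2. Its normalized counts were 1736, 1910 and 2198 in the lowest, median and highest Ctrl mouse and 1716, 3044 and 3333 in βCat-GOF. The 5 βCat-GOF mice other than 1369-2ear lay above all Ctrl mice, and 1369-2ear (1716) lay at the low end of the Ctrl range, below it on normalized counts and within it on log2 CPM. *Txnrd1* rose 1.44-fold (log2 fold change 0.53, SE 0.13, edgeR adjusted p = 0.0457), a call kept in only 2 of the 12 fits that left out 1 mouse each. The mitochondrial reductase had a log2 fold change of 0.05, and the difference between both reductases was not tested. The cytosolic relatives *Txn1* (0.01), *Prdx1* (0.06), *Prdx2* (-0.06) and *Sod1* (0.01) had log2 fold changes between -0.06 and 0.06, with edgeR adjusted p from 0.845 to 0.982.

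Among 17 regulators and targets of NRF2, the transcription factor of the oxidative stress response, 1 gene was called higher and 0 lower, and 15 of 17 had a fold change above 0 (median 0.21 on the log2 scale, beside 0.0001 over all genes tested). The called gene was *Gsta4*, a glutathione transferase that acts on lipid peroxidation products. *Gsta4* had 1035, 1168 and 1271 normalized counts in Ctrl and 1432, 1605 and 1861 in βCat-GOF, and the groups did not overlap. It rose 1.39-fold, just under the study's cut-off of 1.4 (log2 fold change 0.47, SE 0.09, edgeR adjusted p = 0.0112). *Cbr1*, a carbonyl reductase, had a log2 fold change of 0.69 that did not pass the test (edgeR adjusted p = 0.0877). *Slc7a11*, the cystine carrier subunit, had one of 0.46 (edgeR adjusted p = 0.565). For *Nfe2l2*, which encodes NRF2, it was 0.28 (edgeR adjusted p = 0.234).

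Of 10 other genes linked to mitochondrial NADPH, not all of them sources of it, 0 were called higher and 1 lower, with a median log2 fold change of 0.10. *Me2*, the mitochondrial malic enzyme that favours NAD, had 472, 524 and 575 normalized counts in Ctrl and 357, 418 and 451 in βCat-GOF, with no overlap. It fell by 0.33 on the log2 scale (SE 0.08, edgeR adjusted p = 0.042), and the call was kept in 1 of the 12 fits that left out 1 mouse each. *Me3*, the NADP form, had a log2 fold change of 1.21 with a wide error (SE 0.38, edgeR adjusted p = 0.0973), and *Idh2*, a main source of mitochondrial NADPH, had 0.22 (edgeR adjusted p = 0.204).

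Selenoprotein synthesis had 0 of 9 genes called and a median log2 fold change of 0.03. *Scly*, which recovers selenium from selenocysteine, had 473, 564 and 610 normalized counts in Ctrl and 480, 905 and 1431 in βCat-GOF (log2 fold change 0.76, edgeR adjusted p = 0.0707), and *Lrp8*, a selenoprotein P receptor, had 0.35 (edgeR adjusted p = 0.431). Of the 4 carriers linked to mitochondrial glutathione 0 were called, and *Slc25a39* (0.20) and *Slc25a10* (-0.16) had the largest log2 fold changes. Mitochondrial content, read from 12 genes, also had 0 called and a median of 0.13, with *Ppargc1a* (0.46) and *Tomm40* (0.29) furthest from 0. Mitochondrial steroidogenesis had 0 of 6 called and a median of -0.08. *Fdx1*, the ferredoxin that hands electrons to the P450 enzymes, had 8785, 11383 and 14429 normalized counts in Ctrl and 6645, 19908 and 27924 in βCat-GOF (log2 fold change 0.77, edgeR adjusted p = 0.115). *Star*, the cholesterol carrier, had a log2 fold change of 0.49 (edgeR adjusted p = 0.19).

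These related counts depended on single mice. Leaving out any mouse but 1369-2ear, 1367-1-2 and 1369-8 left 2 calls in the redox and mitochondrial lists. Without 1369-2ear, 10 genes of these lists were called in place of 4, and none of the 10 antioxidant genes was among them. The calls then were *Srxn1* (1.99), *Me3* (1.38), *Fdx1* (0.96), *Scly* (0.91), *Cbr1* (0.79), *Txnrd1* (0.65), *Star* (0.61), *Gsta4* (0.43), *G6pdx* (0.37) and *Me2* (-0.33), with the log2 fold change of each in brackets. *Cat*, *Gpx1* and *Gpx4* in the same fit had log2 fold changes of 0.02, 0.06 and 0.02. The largest among the 10 was then 0.21 in *Txn2* (edgeR adjusted p = 0.305).

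Some cell type markers moved as well, where the shares over all genes tested were 2.16% called higher and 1.52% called lower. Of 12 zG markers 10 had a fold change above 0 and 2 below, *Cyp11b2* (-0.18) among them, with a median log2 fold change of 0.84. The 4 called, all higher, were *Agtr1b*, *Vsnl1*, *Agtr1a* and *Dab2*. The summed normalized count of the 12 was 60062 to 74934 in Ctrl and 75623 to 102464 in βCat-GOF. Of 8 zF markers 5 had a fold change above 0 and 3 below, *Cyp11b1* (-0.18) among them, with a median of 0.30 and summed counts that overlapped (508404 to 1194336 in βCat-GOF). The 2 called, both higher, were *Akr1b7* and *Mrap*, and in both 1369-2ear was below all other mice (26231 and 2377 normalized counts) while the other 5 βCat-GOF mice were above all Ctrl mice. Of 8 macrophage markers 3 were called lower (*Itgax*, *Adgre1* and *Mrc1*), with a sum of 6636 to 12937 in Ctrl and 4879 to 8684 in βCat-GOF. X-zone, medulla, adipocyte, red blood cell and endothelial markers had 0 called, with medians of -0.52, -0.35, 0.20, 0.06 and -0.17 on the log2 scale and summed ranges that overlapped between the groups. The part of these shifts in the results on antioxidant genes was not tested.

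Promoters of RefSeq genes (GRCm38.p6, 250 bases before to 50 after the start) were searched on both strands for the core of the antioxidant response element, the site NRF2 binds, in the spellings TGACNNNGC and TGAGNNNGC. The first was found in 12.4% and the second in 17.6% of 32851 promoters. Of the 10 genes 8 had entries, 14 in all, of which 0 held the first spelling and 1, of *Txn2*, held the second. *Nnt* and *Gsr* had no entry. The matches in *Txn2* and in the called genes *Srxn1* and *Txnrd1* are shown, as the promoter runs 5′ to 3′, with the match in capitals and, before it and after it, the bases beside it.
Srxn1, chr2:152105356-152105384, opposite strand: tctactgagaGCCGACTCAtcctctctgg
Srxn1, chr2:152105469-152105497, same strand: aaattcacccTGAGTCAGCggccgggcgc
Srxn1, chr2:152105542-152105570, opposite strand: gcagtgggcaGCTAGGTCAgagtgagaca
Txnrd1, chr10:82859104-82859132, opposite strand: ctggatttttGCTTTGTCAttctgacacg
Txn2, chr15:77929163-77929191, minus-strand gene, opposite strand: cttccttcccGCCCTCTCAcccatctcct
The window of *Srxn1* held 3 matches and 1 of 3 *Txnrd1* entries held 1. *Gsta4* had no entry, and matches of *Me2*, which was called lower, are not given here. The share of all promoters with 3 matches was not counted. A match describes letters in such a window and shows no binding, and whether matches bear on the calls was not tested.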

How the data were processed

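Whole-adrenal mRNA of 6 Ctrl and 6 βCat-GOF mice was sequenced, 1 library per mouse as labelled. The authors aligned reads to mm10 with STAR and counted them per gene with featureCounts 1.4.4, and deposited raw counts. The deposited signal table holds the same counts divided by 1 factor per library: all of its 468204 values (100%) came out whole within 0.01, and edgeR on the recovered reads with these factors called 558 genes. Neither the annotation release nor strandedness is given in the sources used here, and 0 columns were left unmapped.

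Counts were tested with edgeR 4.0.16 (TMM, filterByExpr, quasi-likelihood, two-sided, Benjamini-Hochberg) in R 4.3.3. The SE is the log2 fold change divided by the square root of F. DESeq2 1.42.0 was an alternative (the authors used DESeq2 1.6.3). Log2 CPM used a prior count of 2. Positions and lengths came from GENCODE M21 (GRCm38, the assembly of mm10), promoters from RefSeq, and copies from blastn 2.17.0 (95% identity or more over 10% or more of a transcript). Figures were drawn with matplotlib 3.10.9 in Python 3.11.15. The members and lists were chosen with earlier results of these data known. Named genes are the 10 members, each called gene of a list or otherwise its 2 largest fold changes, the 5 genes most like *Nnt* and its 3 tested neighbours on each side. *Txn1*, *Prdx1*, *Prdx2*, *Sod1*, *Sod3*, *Msrb2*, *Nfe2l2* and *Idh2* were added after their values were seen. So were genes called only without 1369-2ear and list genes named beside a called one. Lists of cell markers are given by counts and called genes only. All 149 list genes were in the table. The test on simulated counts, over 15057 genes, recovered 25 of 50 genes at 1.5-fold, 49 of 50 at 2-fold and 50 of 50 at 3-fold and at 4-fold, with 13 false calls. The simulation used the same dispersion for every gene.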

Additional observations from a re-analysis of the deposited data

How the results depend on the processing

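The 10 antioxidant genes had 0 calls in all 20 alternatives, at both sets of cut-offs, and *Nnt* kept its direction in each (0.06 to 0.21 with 1 mouse left out, adjusted p from 0.344 to 0.86 over all alternatives). Signs near 0 turned, with no call. *Gpx1* was 0.00 with DESeq2 in both forms, with its size factors and with the deposited factors, 0.16 without 1367-1-2, 1367-5-2 and 1369-2ear, 0.12 without 1369-2ear and 1369-2, and -0.12 to 0.06 with 1 mouse left out. *Gpx4* was 0.14 and 0.06 in those 2 sets of mice and -0.15 to 0.02 with 1 left out. *Gsr* was 0.02 and *Cat* 0.11 without 1369-2ear and 1369-2, and *Cat* -0.19 to 0.02 with 1 left out. *Srxn1* and *Gsta4* were called in all 20 alternatives, *Txnrd1* in 10 and *Me2* in 7.

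Counts moved more. Genes called over the whole table (551) were 1233 with DESeq2 without shrinkage, 1214 with its prior, 1740 without 1369-2ear and 1369-2, and 287 (without 1367-10) to 955 (without 1369-2ear) with 1 mouse left out. They were also 354 without 1367-5, 360 without 1367-7 and 320 without 1369-3. Calls in all related lists (13) were in turn 23, 22, 23 and 6 to 20, and 8 without 1387-8. Calls in the redox and mitochondrial lists (4) were 8, 8, 14 and 2 to 10, and 2 without 1387-8. A gap of 0.8 in place of 1 gave 448 genes with separate levels in place of 260, and 1.2 gave 170, with 0 of the 10 members at each. Fits without a mouse use fewer samples, and why DESeq2 called more was not tested. No paired analysis was possible because the labels give mouse names and no replicate numbers shared by the groups. Each of the 10 members had at least 650 normalized counts in every mouse, far above the floor of 3 counts.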
